A study of Rattus norvegicus with 32 samples.

Results

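The hippocampus of the rat expresses receptors for GABA, glutamate, glycine, acetylcholine, adenosine and neuropeptides, and 18 genes of these families were followed here in the R237H rat model of Alexander disease. Members were the identifiers whose gene symbol, as printed in the extended data of the study, begins with the family name of a neurotransmitter or neuropeptide receptor. Of 23822 identifiers in the count table, 3289 could be given a symbol in this way, and 19 of those that matched are described here. One of the 19, Htra1, encodes a secreted serine protease whose symbol only resembles those of the serotonin receptors, and it was set apart. A further 1 matching identifier was left out by the rule. The 18 receptor genes comprised 9 for GABA, 4 for glutamate, 2 for adenosine and 1 each for glycine, acetylcholine and somatostatin. No serotonin, dopamine, opioid, neuropeptide Y or nicotinic receptor was among the identifiers with a symbol, so these families are not analysed here.

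The symbols came from rows that the study listed as changed between genotypes, and the values of R237H against WT rats therefore chose the members. Each member was listed in at least 1 of 4 comparisons (males or females, at P21 or P56). Those lists are held here in shortened form, with 1855 to 1999 identifiers in each, so an unlisted gene may stand in the rows not used. The rows held contained 9 of the 18 receptors for males at P56, 6 for females at P56, 8 for males at P21 and 4 for females at P21, with 13 receptors listed in 1 comparison, 2 in 2, 2 in 3 and 1 (Gabrr1) in all 4. In a comparison that listed a gene, its values are given as a description with no test. Tests are given only for a gene in comparisons that did not list it. At the edge of the choice in males at P56, the listed gene with the weakest evidence was Grik4 (log2 fold change -0.82) and the unlisted gene with the strongest was Gabbr1 (-0.79). The same edge lay between Gabrr3 (-3.11) and Gabra5 (-0.55) for females at P56, between Gabrr1 (1.65) and Chrm3 (-0.26) for males at P21, and between Gabrr1 (1.57) and Grm2 (-0.40) for females at P21.

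Each rat gave 1 library of polyA-selected RNA from the hippocampus, which included Ammon's horn, dentate gyrus and subiculum. R237H rats carried the mutation on 1 allele of the astrocyte filament gene Gfap in every cell (Gfap+/R237H), and the controls were wild-type littermates (Gfap+/+, WT), all on the Crl:CD(SD) background. Males at P56, females at P56 and males at P21 were 4 R237H and 4 WT rats each, and females at P21 were 5 R237H and 3 WT rats. Rats were killed at postnatal day 21 or 56, and nothing in the labels pairs the rats of the 2 ages.

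GABA opens chloride channels built from 5 GABA-A subunits, and it also acts through the GABA-B receptor, a G-protein-coupled heterodimer of Gabbr1 and Gabbr2. The delta subunit (Gabrd) joins alpha4 (Gabra4) in extrasynaptic receptors of dentate granule cells, and the alpha5 subunit (Gabra5) is enriched in hippocampal pyramidal cells. The subunits Gabrr1 and Gabrr3 form GABA-gated channels best known from retina. Glutamate acts through AMPA, kainate and NMDA channels and through metabotropic receptors, while adenosine receptors are found on glia and immune cells as well as on neurons.

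Library totals ran from 21580397 to 55544871 expected counts (median 46157271), and the smallest library of each age was that of an R237H male, with all other 30 libraries at 38503686 or more. Gfap RNA itself was higher in every R237H rat than in any WT rat of the same sex and age, with log2 fold changes of 2.53 to 2.89. Single rats differed in the marker genes Ttr and Wfs1, and the part of dissection in this was not tested. Ttr, the transthyretin gene of the choroid plexus, was above 500 TPM (transcript abundance scaled by gene length and to the same total in every rat) in 5 rats of 5 groups and at most 123 TPM in the other rats, with 5951 TPM in WT male P56 replicate 2. Wfs1, a marker of CA1 pyramidal cells and the subiculum, was highest in WT male P56 replicate 4 (278 TPM) and WT female P56 replicate 3 (203 TPM), against 63.2 to 159 TPM in the other 30 rats. Its level also differed between the genotypes in males at P56, with 63.2 to 114 TPM in R237H and 108 to 278 TPM in WT rats.

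Promoter sequences were available from RefSeq (GRCr8) for 15 of the 18 receptor genes. Over the 250 bases before the transcription start, GC content ran from 38.0% in Gabrr3 to 78.8% in Gabbr2, and 10 of the 15 lay above the median of all 33469 promoters (51.2%). The GC box GGGCGG, read on both strands, was present in 8 of the 15 and in 30.5% of all promoters. The cAMP response element half-site TGACG, also read on both strands, was present in 4 of the 15 (Chrm3, Gabbr2, Gabrr1 and Grin1) and in 18.2% of all promoters, and the AP-1 site TGACTCA was found in Adora3 alone and in 4.05% of all promoters. The STAT site TTCNNNGAA was found in Grik4 alone and in 7.67% of all promoters. Matches of different motifs do not overlap in the sequences printed, while some GC boxes of Gabrd overlap one another. A match of letters is a description and no evidence of binding. The 250 bases of 4 promoters are shown because these genes carry the main patterns, namely Grin1 (chr3:28528755-28529004, minus strand) and Gabrd (chr5:171252710-171252959, minus strand), which were lower in R237H rats at P56, and the 2 Gabrr subunits, Gabrr1 (chr5:52320225-52320474, plus strand) and Gabrr3 (chr11:54424467-54424716, minus strand), which moved in opposite directions. Capitals mark GGGCGG and TGACG on either strand.
Grin1: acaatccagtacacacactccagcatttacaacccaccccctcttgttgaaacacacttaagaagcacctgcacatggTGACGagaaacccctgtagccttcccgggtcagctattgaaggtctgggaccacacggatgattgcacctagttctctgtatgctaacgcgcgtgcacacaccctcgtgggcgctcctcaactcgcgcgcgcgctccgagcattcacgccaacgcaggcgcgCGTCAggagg
Gabrd: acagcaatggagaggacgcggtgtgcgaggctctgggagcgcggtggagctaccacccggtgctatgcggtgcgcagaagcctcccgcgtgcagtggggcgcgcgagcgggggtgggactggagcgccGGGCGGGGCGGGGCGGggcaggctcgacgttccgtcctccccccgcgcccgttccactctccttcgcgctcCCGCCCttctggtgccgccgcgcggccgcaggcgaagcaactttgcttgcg
Gabrr1: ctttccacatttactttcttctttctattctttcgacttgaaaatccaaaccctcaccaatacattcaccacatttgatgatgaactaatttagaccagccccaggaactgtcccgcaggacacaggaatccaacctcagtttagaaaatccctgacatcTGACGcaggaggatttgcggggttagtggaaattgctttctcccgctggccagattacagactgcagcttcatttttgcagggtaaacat
Gabrr3: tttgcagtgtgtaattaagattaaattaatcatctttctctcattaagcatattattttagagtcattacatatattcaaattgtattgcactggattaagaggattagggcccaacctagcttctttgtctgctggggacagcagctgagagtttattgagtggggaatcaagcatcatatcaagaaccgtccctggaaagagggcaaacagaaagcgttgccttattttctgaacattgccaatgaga
Gabrd held 4 GC boxes, 3 of them in an overlapping run, and no TGACG. Grin1 held 2 copies of TGACG, Gabrr1 held 1, and Gabrr3 held neither motif.

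In WT rats the receptors spanned a wide range of levels, which TPM values allow to be compared between genes because they are scaled by length. Gabbr1, the ligand-binding GABA-B subunit, was the most abundant at both ages, with 489 ± 21.5 TPM (SD, n = 7) at P21 and 456 ± 70.3 TPM (SD, n = 8) at P56. Grin1, the obligate subunit of NMDA receptors, followed with 187 ± 14.4 and 188 ± 30.3 TPM. Gabra5 and Gabra2, both GABA-A alpha subunits, were at 141 ± 12.5 and 132 ± 28.8 TPM at P56, and the rats' ranges of Grin1, Gabra5 and Gabra2 overlapped from one gene to the next. A middle group of Gria3, Gabbr2 and Glrb lay between 83.1 and 89.1 TPM at P56, where each gene overlapped its neighbours in the order. Gabra4 (49.7 TPM), Gabrg1, Grik4, Chrm3 and Gabrd (26.8 TPM) came next, each overlapping its neighbour, followed by Grm2 (12.5 TPM), Sstr3 (11.5 TPM) and Adora2b (5.14 TPM), which also overlapped in turn. The rare receptors were Adora3 (2.20 TPM), Gabrr3 (0.593 TPM) and Gabrr1 (0.101 TPM), and their ranges did not overlap.

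**Figure D1:**
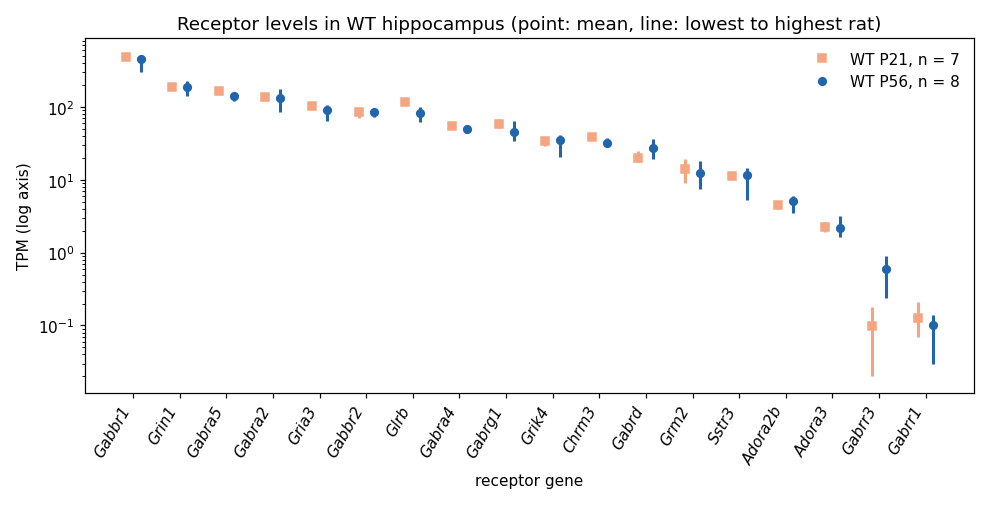
TPM (log axis) of the 18 receptor genes in WT rats of both sexes at P21 (squares, n = 7) and P56 (circles, n = 8), with points for means and lines from the lowest to the highest rat. Gabbr1 stood above all other receptors, at 489 TPM at P21 and 456 TPM at P56, and the adenosine receptors, Gabrr3 and Gabrr1 were lowest.

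At P56 most of these receptor genes had lower values in R237H than in WT rats of both sexes, and those for adenosine and Gabrr1 had higher ones. Of the 18 receptors, 15 had a log2 fold change below 0 in males and the same number in females, with medians of -0.77 and -0.62, but these include the 9 and 6 receptors that the same comparison had listed as changed. Over the 9 receptors not listed for males the median was -0.53, with 7 below 0, and over the 12 not listed for females it was -0.59, with 11 below 0. The median of all genes tested was -0.01 in males and -0.03 in females. Among the 9 not listed for males, Gabbr1 and Gabrg1 passed as lower and Adora3 rose at a false discovery rate (FDR) under 0.01. Gabrr3 was also under that threshold, but it is described only, for reasons of low counts given below, and is no call. Counts out of these 9, here and below, keep Gabrr3 among the 9. DESeq2 called 6 of the 9 lower and 2 higher. Of all genes tested in males, 11.1% fell and 16.8% rose by that threshold. Among the 12 not listed for females, 9 fell (Chrm3, Gabbr2, Gabra4, Gabra5, Gabrd, Gria3, Grik4, Grin1 and Grm2) and none rose in edgeR's quasi-likelihood test, where the other 3, Adora2b, Glrb and Sstr3, had unadjusted p under 0.05. Of all genes tested in females, 11.1% fell and 17.0% rose. DESeq2 called 10 of the 12 lower and 1 higher. In normalized counts, groups did not overlap, with R237H lower, for 11 of 18 receptors in males and 14 in females (17.8% and 18.8% of all genes). They did not overlap, with R237H higher, for 3 in each sex (24.2% and 22.2% of all genes). None of these counts can be read as shares of receptors in general, since each gene had been listed for a change in at least 1 comparison.

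The size of these differences depended on the scale. In males at P56, the 10 most abundant genes held 33.0% to 55.1% of all TPM in WT and 24.3% to 27.9% in R237H rats, and in females of that age 38.5% to 43.1% in WT and 23.7% to 40.6% in R237H rats. On the scale of log2(TPM + 0.1) the median of all genes tested lay at 0.40 in males and 0.26 in females, not near 0, and at -0.01 and -0.07 at P21. Relative to that median, the receptors' median was -0.74 in males and -0.60 in females at P56, and 15 of 18 lay below it in each sex. Taken as such, the TPM values gave a median of -0.34 in males and -0.34 in females, with 14 and 15 of 18 receptors below 0. By limma on that scale, Gabrr3 aside, none of the receptors not listed for males passed as lower, and 2 rose. In females none of 12 fell and 1 rose. The calls of lower receptors at P56 thus hold on the TMM scale, which sets the bulk of genes to no change, and not on unshifted TPM. Gabrr3 was under the threshold on either scale in males, but it is described only and is no such call. Separation of the groups also depended on the scale. In males at P56, TPM of WT replicate 3 lay below the R237H range for Gabbr1 (304) and Grik4 (20.8). It lay within that range for Grin1 (139) and Gabrg1 (33.4), while Gabbr2, Gabrd and Chrm3 stayed apart on TPM. All fold changes and statements of overlap below are, unless TPM is named, on the TMM scale and so relative to most other genes.

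**Figure D2:**
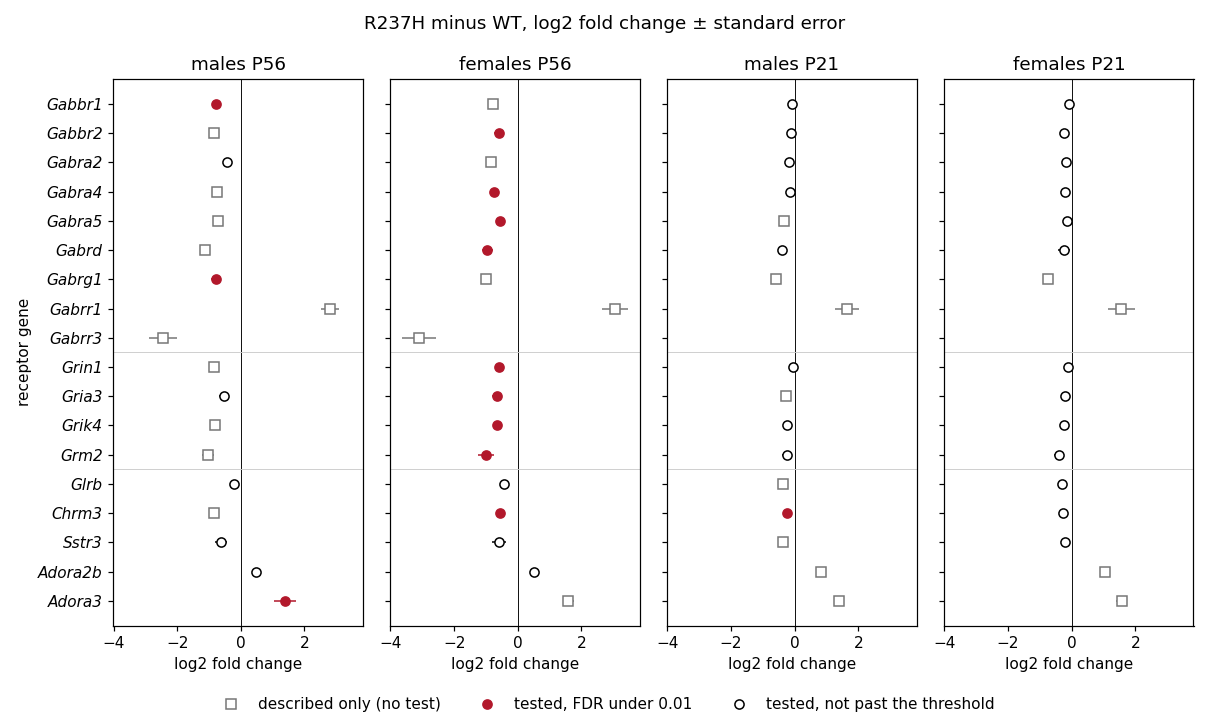
Log2 fold change of R237H over WT (x axis, with standard error) for each receptor gene (y axis) in 4 comparisons. Squares have no test, because the comparison listed the gene or, for Gabrr3 in males at P56, because only 1 group reached the filter on low counts. Circles are tests, filled past FDR 0.01 and open if not. At P56, 15 of 18 receptors lie left of 0 in each sex, and at P21 14 of 17 do.

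The GABA-B receptor was lower on both subunits at P56. Gabbr1 ran at 31446, 31006, 31093 and 28208 normalized counts in R237H males and at 52814, 44506, 50619 and 63058 in WT males. Every R237H male was below every WT male in these counts, and Gabbr1 fell by 0.79 on the log2 scale (SE 0.11, FDR 4.06e-04). On unshifted TPM the groups were not apart, since WT male replicate 3 (304 TPM) lay below the R237H range of 324 to 380 TPM. In females, where Gabbr1 was listed, R237H rats had 30107 to 33051 and WT rats 52825 to 61065 normalized counts, with a log2 fold change of -0.79. Gabbr2, the subunit that couples to G proteins, was tested in females. It read 10793, 9382, 9332 and 6849 in R237H females against 11931, 15734, 14990 and 12147 in WT females, and it fell by 0.59 (SE 0.15, FDR 0.0085). The groups were apart, yet that call held in only 2 of 8 fits that each left out 1 rat, those without replicate 1 of either genotype (FDR up to 0.0281 in the others). In males Gabbr2 was listed, with 8206 ± 1116 against 14689 ± 2087 normalized counts (SD, n = 4 each). The ratio of Gabbr1 to Gabbr2 TPM was 5.25 ± 0.600 in R237H males and 5.02 ± 0.971 in WT males, a difference smaller than the spread between rats. In females it was 4.97 ± 1.13 in R237H and 5.87 ± 0.846 in WT rats, with overlapping ranges.

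Among the GABA-A subunits other than Gabrr1 and Gabrr3, Gabrd and Gabrg1 had the largest differences at P56. R237H females had 515, 757, 735 and 647 normalized counts of Gabrd, and WT females had 1129, 1036, 1679 and 1315. No values overlapped, and Gabrd fell by 0.96 (SE 0.17, FDR 0.0014). Its partner Gabra4 read 1584, 1835, 1433 and 1183 in R237H and 2187, 2925, 2423 and 2537 in WT females, again without overlap, and it fell by 0.74 (SE 0.14, FDR 0.00201). Both were listed in males, with log2 fold changes of -1.12 for Gabrd and -0.75 for Gabra4. The ratio of Gabrd to Gabra4 TPM was 0.457 ± 0.102 in R237H and 0.530 ± 0.143 in WT females, within the spread between rats. In males it was 0.437 ± 0.0782 in R237H and 0.567 ± 0.177 in WT rats, with overlapping ranges.

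Gabra5, the alpha subunit of tonic currents in pyramidal cells, was tested in females, where R237H rats had 7898, 7250, 7123 and 6485 and WT rats 10531, 11291, 9563 and 10808 normalized counts. The groups were well apart, and Gabra5 fell by 0.55 (SE 0.09, FDR 6.89e-04). In males it was listed with a log2 fold change of -0.72. Gabra2, an alpha subunit of synaptic receptors, had the reverse standing. It was listed in females, with 4861 ± 310 against 8752 ± 1312 normalized counts, and the test in males did not pass (log2 fold change -0.43, SE 0.14, FDR 0.0366). The R237H males had 4702 to 5685 counts, and 1 of the 4 WT males, replicate 4, read 5288 and lay within them.

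Gabrg1, a gamma subunit, was tested in males. It is carried by glia as well as by some neurons, and it read 1141, 1136, 1215 and 1375 in R237H and 2679, 1800, 2137 and 1755 in WT males. Gabrg1 fell by 0.78 (SE 0.14, FDR 0.00165), with no overlap. In females it was listed, with a log2 fold change of -0.99. In the RefSeq order of genes on chromosome 14, Gabra4, Gabra2 and Gabrg1 lie close together, and all 3 had fold changes below 0 in all 4 comparisons. This was not particular to them, since 15 of 18 receptors were below 0 in each sex at P56 and 14 of 17 at P21. Each of the 3 had also been listed in some of these comparisons.

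**Figure D3:**
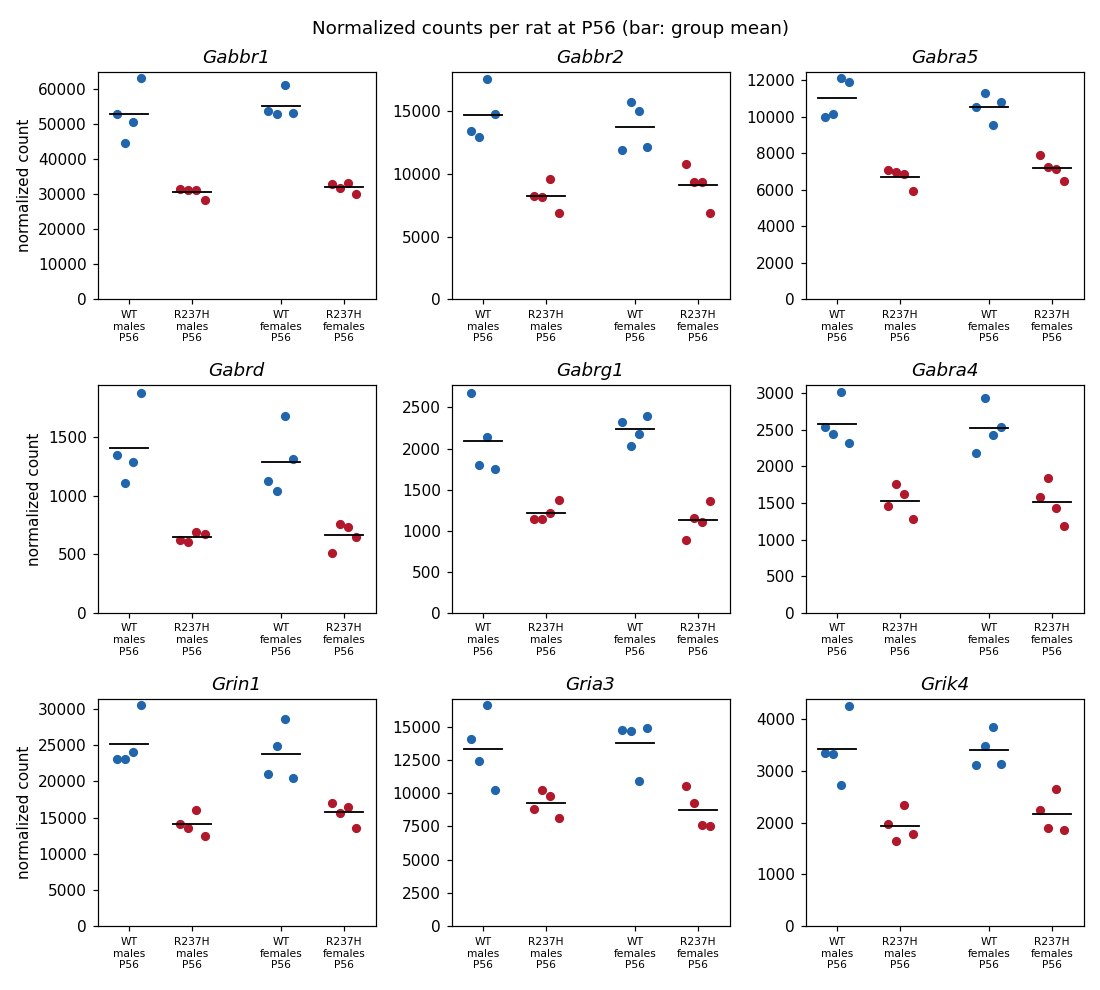
Normalized counts (y axis, linear from 0) of 9 receptor genes in each rat at P56, WT in blue and R237H in red, males and females side by side, with bars at group means. On this scale the groups do not overlap except for Gria3 in males, where WT replicate 4 (10204) lies within the R237H range of 8144 to 10251.

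Gabrr1 and Gabrr3 went in opposite directions. Gabrr1 was listed in all 4 comparisons and is described only. It read 103, 80.0, 116 and 78.5 normalized counts in R237H males at P56 against 15.0, 8.93, 16.9 and 13.8 in WT males, and 140, 92.9, 76.9 and 105 in R237H females against 3.16, 17.8, 11.4 and 17.0 in WT females. Log2 fold changes were 2.79 and 3.06, the highest of all receptors at that age. These rest on few reads, with 3 to 16 expected counts in the WT rats of both sexes. At P21 the log2 fold changes were 1.65 in males and 1.57 in females, and in each sex 1 R237H rat (13.6 and 21.2 normalized counts) lay within the WT range.

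Gabrr3 was not listed for males at P56, where R237H rats read 6.80, 4.75, 7.02 and 6.68 normalized counts and WT rats 29.1, 19.6, 63.0 and 27.6. Every R237H male was below every WT male, with a log2 fold change of -2.44 (SE 0.44). The minimum of the filter on low counts was reached by all 4 WT males and by 0 of 4 R237H males, so Gabrr3 entered the fit only through the group where it is high, and its difference is a description with no test. In females it was listed, with 3.13 ± 2.22 against 28.9 ± 13.1 normalized counts. Between 1 and 9 expected counts underlie each R237H value at P56. At P21 both genotypes were as low as that: Gabrr3 had 1 to 7 expected counts in WT and 3 to 14 in R237H rats and did not pass the filter on low counts, so a difference was not testable there at this depth.

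**Figure D4:**
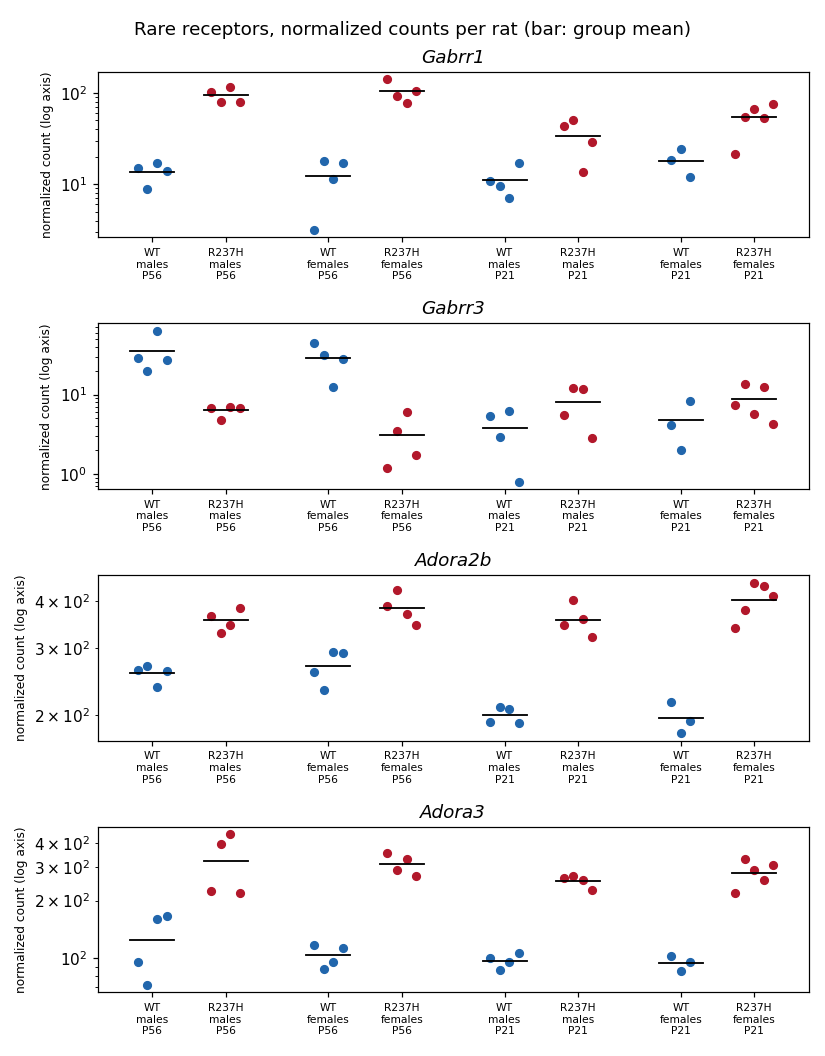
Normalized counts (y axis, log scale) per rat of 4 rare receptor genes in the 8 groups, WT in blue and R237H in red, with bars at group means. Gabrr1 and Adora3 are higher in R237H rats at both ages, and Gabrr3 is highest in WT rats at P56 (12.4 to 63.0 normalized counts).

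Each of the 4 glutamate receptor genes had a fold change below 0 at P56 in both sexes. Grin1 was tested in females, where R237H rats read 17052, 15685, 16539 and 13610 and WT rats 20962, 24941, 28569 and 20537. Grin1 fell by 0.60 (SE 0.12, FDR 0.00316), and the groups did not overlap. That call was lost without R237H replicate 2 or 4 or WT replicate 2 (FDR up to 0.0117). In males, where Grin1 was listed, means were 14081 ± 1510 against 25165 ± 3589 normalized counts. Gria3, an AMPA receptor subunit, fell by 0.66 in females (SE 0.14, FDR 0.0034), with 7522 to 10502 normalized counts in R237H and 10895 to 14887 in WT rats, a call lost without R237H replicate 4 or WT replicate 1, 2 or 4 (FDR up to 0.0122). Its test did not pass among males (log2 fold change -0.53, SE 0.15, FDR 0.0162), and 1 WT male lay within the R237H range.

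Grik4, a kainate receptor subunit abundant in CA3 pyramidal cells, read 2233, 1901, 2653 and 1860 in R237H and 3119, 3484, 3852 and 3131 in WT females. It fell by 0.65 (SE 0.13, FDR 0.0024) without overlap, a call lost only without R237H replicate 2 (FDR 0.0105), and in males it was listed with a log2 fold change of -0.82. Grm2, a presynaptic metabotropic receptor that inhibits adenylyl cyclase, was the least steady of the 4. R237H females had 1028, 853, 892 and 529 and WT females 1689, 1576, 2318 and 1019 normalized counts, so that 1 WT female lay inside the R237H range. Grm2 fell from a WT mean of 1650 ± 533 to 825 ± 211 (SE 0.25 on the log2 scale, FDR 0.00933), and the call held only in the fit without WT replicate 4 and was lost in the 7 others (FDR up to 0.0248). The ratio of Grin1 to Gria3 TPM in females was 2.12 ± 0.288 in R237H and 2.07 ± 0.673 in WT rats, within the spread between rats. In males at P56 it was 1.77 ± 0.162 in R237H and 2.31 ± 0.811 in WT rats, with overlapping ranges.

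Chrm3, the muscarinic receptor coupled to phospholipase C, passed a test at both ages. The number of tests open to a receptor was set by where it was listed, so such counts do not rank the receptors. In females at P56 it read 2724, 2475, 2570 and 1902 in R237H against 3639, 3397, 3580 and 3589 in WT rats and fell by 0.55 (SE 0.11, FDR 0.00268). In males at P21, R237H rats had 3320, 3012, 3246 and 3136 and WT rats 3789, 3922, 3731 and 3735 normalized counts, and Chrm3 fell by 0.26 (SE 0.05, FDR 0.00216). The groups were apart both times, and the P21 call was lost only without WT male P21 replicate 2 (FDR 0.0128). In females at P21 the groups were again apart, but the test did not pass (log2 fold change -0.28, SE 0.10, FDR 0.0942). Males at P56 were listed, with a log2 fold change of -0.84.

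Glrb, the beta subunit of glycine receptors that binds gephyrin, did not pass in any test. At P56 its log2 fold change was -0.21 in males (SE 0.10, FDR 0.127) and -0.44 in females (SE 0.11, FDR 0.0102), and on the TPM scale the male value was above 0 but below the median of all genes. In males at P21, where Glrb was listed, R237H rats had 5648 to 7326 and WT rats 8409 to 8967 normalized counts. Sstr3, the somatostatin receptor of neuronal primary cilia, did not pass at P56 either, with log2 fold changes of -0.63 in males (SE 0.18, FDR 0.02) and -0.59 in females (SE 0.21, FDR 0.0465). It was listed for males at P21, with 867 ± 62.6 against 1116 ± 17.7 normalized counts.

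The adenosine receptors were higher in R237H rats in all 4 comparisons. Adora3, which in rodent brain is best known from microglia and is coupled to inhibitory G proteins, was tested in males at P56. R237H males read 224, 398, 446 and 219 and WT males 94.7, 72.3, 161 and 166 normalized counts, and Adora3 rose by 1.39 on the log2 scale (SE 0.34, FDR 0.00792). No values overlapped, yet the R237H males were 2 low and 2 high rats, and the call was lost without R237H replicate 2 or 3 or WT replicate 1 or 2 (FDR up to 0.0263). In the 3 comparisons that listed it, means were 254 to 311 in R237H and 94.2 to 103 in WT rats. Adora2b, which stimulates adenylyl cyclase at high adenosine levels, was listed at P21 in both sexes, with 357 ± 33.6 against 200 ± 10.1 normalized counts in males and 403 ± 44.4 against 196 ± 18.7 in females. At P56 its groups remained apart, with 329 to 383 counts in R237H and at most 270 in WT males, and 345 to 426 against 233 to 294 counts in females. Both tests missed the threshold, with log2 fold changes of 0.46 (SE 0.13, FDR 0.0139) and 0.51 (SE 0.13, FDR 0.0107).

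Htra1, the protease caught by the pattern of letters, was tested at P56. It read 3629, 3432, 4034 and 3552 in R237H males against 4903, 4427, 6363 and 7648 in WT males and fell by 0.67 (SE 0.16, FDR 0.00747), a call lost without any one of the 4 R237H males or without WT replicate 3 (FDR up to 0.0262). In females it fell by 0.57 (SE 0.09, FDR 4.65e-04). At P21 it was listed in both sexes, with log2 fold changes of -0.54 and -0.67.

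At P21, 17 receptors passed the filter on low counts. Of these, 14 had log2 fold changes below 0 in each sex, with medians of -0.23 in males and -0.22 in females, the listed receptors included. On unshifted TPM the medians were -0.21 and -0.28, beside -0.34 in each sex at P56. Of 9 tested in males, Chrm3 fell and none rose. By the same threshold 4.82% of all genes fell and 12.4% rose. None of 13 tested in females passed in either direction by the quasi-likelihood test, 4 had unadjusted p under 0.05, and 0.753% of all genes fell and 7.06% rose. DESeq2 and edgeR's likelihood-ratio test also called none of the 13. Without overlap between groups, R237H rats were lower for 8 receptors in males and 4 in females (12.9% and 6.88% of all genes) and higher for 2 in each (17.1% and 14.6% of all genes).

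Gabrd in males at P21 lay just outside the threshold, with a log2 fold change of -0.40 (FDR 0.0118) and no overlap between groups. The tests of Gabbr1 and Grin1 did not pass at that age. Gabbr1 differed by -0.08 in males (SE 0.05, FDR 0.245) and -0.08 in females (SE 0.07, FDR 0.524), and Grin1 by -0.05 (SE 0.08, FDR 0.689) and -0.10 (SE 0.12, FDR 0.67). The largest difference of the GABA-A subunits other than Gabrr1 was that of Gabrg1, which was listed in both sexes, with 1409 ± 272 against 2103 ± 48.5 normalized counts in males and 1607 ± 312 against 2685 ± 196 in females. Whether a difference between the genotypes changed with age was not tested, because the choice of members used these comparisons.

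In WT rats, P56 was set against P21 for all 18 receptors. The WT rats are the same ones whose values, set against those of R237H rats, chose the members, so the values of single genes are given as a description. Age could not be told apart from collection, as the 2 ages were separate sets of rats. None of 18 receptors passed in edgeR's quasi-likelihood test in either sex. In males 4 and in females 7 had unadjusted p under 0.05, DESeq2 called 3 in males and 1 in females, and edgeR's likelihood-ratio test called 1 in each. Of all genes, 0.741% rose and 1.7% fell in males, and 0.415% rose and 1.14% fell in females. Gabrr3 had means of 4.24 normalized counts at P21 and 35.4 at P56 in males and of 4.55 and 26.9 in females, without overlap in either sex, but no WT rat at P21 reached the minimum of the filter on low counts, so it entered this fit only through the P56 rats. Gabrd was at 938 and 1427 in WT males (difference of 0.60 on the log2 scale, SE 0.17) and at 811 and 1203 in WT females (0.57, SE 0.16). Glrb had values of the other sign, -0.40 in males (SE 0.10) and -0.34 in females (SE 0.12), with no overlap between ages.

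Other genes of transmission were taken from lists by role, and they too had a symbol only where the study listed them. Unlike for the members, their counts include the comparisons that listed the gene. They are therefore descriptive and partly set by that choice, also where they exceed the shares of all genes. Those shares were 11.1% lower at P56 in each sex, and 4.82% in males and 0.753% in females at P21. Of 6 matched glutamate receptor scaffold and auxiliary genes, all 6 were lower at FDR under 0.01 in P56 males, 4 in P56 females and 1 in each sex at P21. Dlg4, the gene of PSD-95, had log2 fold changes of -0.87 and -0.64 at P56 and -0.10 and -0.20 at P21, males first. All 3 GABA-A receptor anchoring genes were lower at P56 in both sexes, among them Lhfpl4, which holds GABA-A receptors at synapses (-0.86 and -0.74). Of 5 genes of GABA synthesis and uptake, 4 were lower at P56 and 3 at P21 in each sex, with the GABA transporter Slc6a11 at -1.31 and -1.65 at P56. Of 3 matched genes of glutamate supply and uptake, 1 was higher (Slc38a1, 0.67 and 0.58) and 1 lower (Slc38a3, -1.08 and -0.85) at P56 in both sexes.

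For adenosine, the genes that set its level were split. Nt5e, which makes adenosine outside cells, had log2 fold changes of 1.19 and 1.27 at P56, and Adk, which removes it by phosphorylation, of -0.96 and -1.06. Ada, which removes it by deamination and was named after its values were seen, had log2 fold changes of 1.91 and 2.45. Of the 7 matched genes of acetylcholine, monoamine and adenosine supply, 3 were higher and 3 lower in P56 males, and 2 and 4 in P56 females. Pdyn, the dynorphin precursor of granule cells, was at -1.30 and -0.91, and Npy, the other matched neuropeptide, at 0.60 and 1.32.

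Cell type markers were set beside these results, and their lists did not all move alike. These genes too had a symbol only where the study listed them, and their counts include the comparisons that listed them, so they are likewise descriptive. The shares of all genes are those given above, with 16.8% and 17.0% higher at P56 and 12.4% and 7.06% at P21, males first. Of 5 matched neuron markers, 5 were lower in P56 males and 4 in P56 females, against 1 in P21 males and none in P21 females, with Nefl at -1.02 and -0.82 at P56. The 10 listed neuron markers could be matched for only those 5, whose summed level was 1184 to 1375 TPM in R237H against 1458 to 1831 in WT males at P56. Of 4 pyramidal cell markers, 4 were lower in males and 1 in females at P56, and 1 of the 4 is Grik4 itself. Of 11 microglia markers, 9 were higher in each sex at P56, 11 in males and 9 in females at P21, and their sum was 1936 to 3002 TPM in R237H against 212 to 382 in WT males at P56. In bulk tissue, fewer cells of a type and less RNA per cell cannot be told apart, and the part of cell numbers in the receptor values was not tested.

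The remaining lists had between 1 and 8 matched genes. At P56 in males, 2 of 8 astrocyte markers were higher and 2 lower, and 1 of 3 endothelial and mural markers was lower, with the same counts in females of that age. At P21, 4 astrocyte markers were higher and 3 lower in males and 2 and 2 in females, and 1 and 2 of the 3 endothelial and mural markers were lower. The 1 granule cell marker, Prox1, passed in no comparison, and the 1 interneuron marker, Npy, was higher in P56 females (1.32) and did not pass in the other 3. The 1 matched oligodendrocyte marker was higher in P56 males (0.70) and lower in P21 males (-0.39). It did not pass in females, with 0.56 at P56 and -0.31 at P21. None of the 5 matched choroid plexus markers passed by edgeR in any comparison, and in males at P56 their sum ran from 3.50 to 6134 TPM over WT rats.

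Leaving out single rats moved the counts of receptors called at P56. Without WT male P56 replicate 4, the rat with the highest Wfs1, 6 of 9 receptors passed as lower in males, against 3 with it. Gabrr3, which is described only, is among the lower ones in every count for males here. Without R237H female P56 replicate 4, the R237H female with the highest Ttr, 5 of 12 fell in females, against 9 with it, and the count was also 5 without R237H replicate 2 or WT replicate 2, whose Ttr (5.38 and 4.01 TPM) and Wfs1 (113 and 132 TPM) lay within the range of the other females. Leaving out WT male P56 replicate 2, which had the highest Ttr of all, left 3 lower, as with it, and none higher in males. All log2 fold changes of called receptors kept their sign in each of these fits. The part of dissection in the receptor values was not tested.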

How the data were processed

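Hippocampal RNA of 32 rats was sequenced as stranded polyA libraries. Per the study's methods, reads were trimmed (Skewer) and aligned (STAR) and gene expression was estimated by RSEM. The genome build and annotation are not given in the sources used here. The authors deposited expected counts per gene, which are not scaled, and the authors' RSEM table of TPM values. Of the expected counts, 5.68% were not whole, and all were rounded here.

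Counts were tested with edgeR 4.0.16 (R 4.3.3, quasi-likelihood F-test, default filter on low counts, TMM normalization), comparing R237H with WT rats of the same sex and age, or P56 against P21 within WT rats of a sex. FDR values are Benjamini-Hochberg values over all genes tested in that comparison, and the threshold was 0.01. The SE is the log2 fold change over the square root of F. Normalized counts were scaled by TMM library sizes within a comparison. Every member reported, Gfap and at most 3 genes of each pathway or marker list with the smallest FDR in males at P56 were to be named, and Ttr and Wfs1 were named after their values were seen. The members and lists were chosen with earlier results of these data known. Of the genes that match the rule, 3 are not reported here. Gene symbols, and no values, came from the study's extended data. The tests over all receptor genes of each family were not run, because the identifiers could not be matched to symbols beyond those rows.

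Alternatives were edgeR's likelihood-ratio test, DESeq2 1.42.0, RLE size factors, no filter on low counts or at least 10 counts in every rat, all 32 rats in one model, limma 3.58.1 on log2(TPM + 0.1), a threshold of 0.05, title numbers as a block, and leaving out 1 rat at a time. The scripts were tested on simulated counts. There the quasi-likelihood test recovered 11% of 1.5-fold and 59% of 2-fold changes in females at P21. In males at P56 it recovered 1% and 45%, so a gene that did not pass cannot be called unchanged. Tables and figures were made with Python 3.11.15, pandas 2.3.3, numpy 2.4.6 and matplotlib 3.10.9.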

Additional observations from a re-analysis of the deposited data

Results flagged for a closer look

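Of 130 sets of values of 1 gene in 1 group of 4 or 5 rats, 8 had 1 rat far from the others by Dixon's criterion, where chance marks about 1 in 20. In R237H males at P56, replicate 4 was lowest for Gabbr1 (28208 normalized counts) and Gabra2 (4702), and replicate 2 was lowest for Gabrr3 (4.75). Replicate 4 of WT males at P56 was highest for Grin1 (30506). Replicate 3 of WT females at P56 was highest for Gabbr1 (61065) and lowest for Gria3 (10895). Of the P21 rats, replicate 1 of WT males was lowest for Gabbr2 (9730), and replicate 5 of R237H females was lowest for Grik4 (2200). WT male P56 replicate 4 and WT female P56 replicate 3 were also the rats with the highest Wfs1. R237H male P56 replicate 4 had the smallest library of that age (25420919 expected counts) and 761 TPM of Ttr.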

How the results depend on the processing

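Counts below are receptors not listed that fell or rose, with males at P56 at 3 lower and 1 higher, females at P56 at 9 and 0, males at P21 at 1 and 0, and all others at 0. The 3 include Gabrr3, which is described only. DESeq2, one model of all 32 rats, and a threshold of 0.05 each gave 6 lower and 2 higher in males at P56, and the likelihood-ratio test gave 5 lower. In females at P56 the number higher was 1 by the likelihood-ratio test, DESeq2, at least 10 counts in every rat, all 32 rats or a threshold of 0.05. The number lower in males at P21 was 2 by the likelihood-ratio test, DESeq2 or no filter, 0 with all 32 rats and 4 at a threshold of 0.05. From P21 to P56 in WT males, 1 rose by the likelihood-ratio test or at 0.05 and 2 by DESeq2, and 1 fell by DESeq2 or at 0.05; in WT females 1 rose by each of the 3. Leaving out 1 rat gave 3 to 6 lower and 0 to 1 higher in males at P56, 5 to 8 lower in females at P56, 0 to 2 lower in males at P21 (0 without WT replicate 2, 2 without WT replicate 1 or R237H replicate 2), and 0 to 0 elsewhere. No log2 fold change that passed the threshold reversed. With RLE size factors, all 43 tested values kept their call. By limma on TPM, 11 of the 14 calls were lost and 2 of the other 29 tested values gained one, and the cause was not tested. The 14 count Gabrr3 in males at P56, which is described only.

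What the number in a rat's title stands for is not stated in the sources used here, and the main fits did not treat the rats as pairs. The correlations of few rats cannot decide whether same-numbered rats are pairs. Correlations of same-numbered rats' deviations ran from -0.19 to 0.34 in males at P56, 0.04 to 0.63 in females at P56 and 0.02 to 0.68 in females at P21. Those of differently numbered rats ran from -0.48 to 0.42, -0.45 to 0.49 and -0.54 to 0.44. In each female comparison the highest value was that of a same-numbered pair. All P21 males share 1 number, and in females some numbers hold rats of 1 genotype only. With the title number as a block, 0 were higher in males at P56, so the call of Adora3 was lost there. In that fit 2 were lower in females at P56 and 1 lower in females at P21. That fit kept only rats whose number occurs in both genotypes, so it used all males at P56 but fewer females at either age. Its counts in females therefore cannot be set against those from all rats.

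The 3 to 5 rats in a group limit the precision, and for Gabrr1 and Gabrr3 so do their few counts.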
